A study of Mus musculus with 9 samples.

Results

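The genes described here encode the protein complexes of oxidative phosphorylation in the inner mitochondrial membrane. The genes were taken by symbol, and measured brightness entered only in the choice of probe set. Earlier results of these data were known when the choice was made. Included were probe sets with 1 symbol beginning with Ndufa, Ndufb, Ndufc, Ndufs, Ndufv, Uqcr, Cox4 to Cox8 or Atp5, and those named Sdha, Sdhb, Sdhc or Sdhd. Each gene is represented by 1 probe set, the brightest on average across the 9 arrays. This gave 84 of the 12393 genes measured, of which 39 fell to complex I, 4 to complex II, 8 to complex III, 16 to complex IV and 17 to complex V. The symbols also brought in 5 assembly factors of complex I (Ndufaf1, Ndufaf3, Ndufaf4, Ndufaf5 and Ndufaf7), 6 isoforms of complex IV known from muscle, testis or lung, Ndufa4, which is named for complex I but is now placed in complex IV, and Cox7a2l, a factor that joins complexes. Without these, 71 subunits remained. Subunits encoded by the mitochondrial genome itself are not analysed here.

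Electrons from NADH enter the chain at complex I and those from succinate at complex II. Ubiquinone carries them to complex III and cytochrome c on to complex IV, where oxygen is reduced, and complexes I, III and IV pump protons that drive ATP synthesis by complex V. Treg cells (regulatory T cells), which restrain immune responses, are known for relying on oxidative phosphorylation more than effector T cells do.

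The RNA came from CD4+CD25+ Treg cells, isolated with magnetic beads from C57Bl/6 mice. CBP and p300 are closely related enzymes that acetylate histones, and cells lacking either were set against control cells. The CBP-deleted group comes from fl-CBP/Foxp3cre mice (3 arrays), the p300-deleted group from fl-p300/Foxp3cre mice (3 arrays) and the control group from mice labelled as Foxp3cre control, also called wild type in the design text (3 arrays). In the knockouts a floxed allele is deleted by a Cre recombinase expressed from Foxp3, so that deletion is aimed at cells that express this Treg factor. The replicates are called independent samples, and nothing says whether each came from 1 animal, so p-values measure the spread between these samples. All values below are log2 RMA levels, that is, probe set brightness after background correction and normalisation, and a difference of 1 is a doubling.

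Some facts about the arrays bear on every result. Foxp3, the defining factor of Treg cells, read 2.73, 2.91 and 2.97 in CBP-deleted arrays and 2.58, 3.08 and 3.19 in p300-deleted arrays, against 9.75, 9.58 and 9.48 in control arrays. Foxp3 thus read below the 40th percentile of all probe sets (4.52) in both knockouts, and Ctla4, another Treg gene, read 11.34, 11.28 and 11.23 in CBP-deleted arrays and 11.03, 11.04 and 11.07 in p300-deleted arrays, against 10.94, 10.46 and 10.79 in control arrays. Of 9 T cell and Treg markers Ctla4 was the 1 with a positive difference between CBP-deleted and p300-deleted arrays. The other 8 were negative, 5 of them with all CBP-deleted arrays below all p300-deleted arrays. The labels do not settle whether the controls carry the same Foxp3cre allele as the knockouts, so in comparisons against control a difference in that allele and the deletion cannot be told apart. The gene for CBP, Crebbp, read 7.35, 7.11 and 7.13 in CBP-deleted arrays and 7.67, 7.48 and 7.53 in p300-deleted arrays, against 7.56, 7.67 and 7.36 in control arrays. All 3 CBP-deleted arrays lay below the others for Crebbp, by a difference that did not pass the test (limma adjusted p = 0.123 against control), and where its probes lie relative to the deleted part is not given in the sources used here. The p300 gene is not analysed here. The controls were the least uniform group: replicates 2 and 3 were the least alike of any pair within a group (r = 0.990 over genes) and received array quality weights of 0.379 and 0.392, against 0.926 to 2.13 for the other arrays. The Gapdh probe set at the 3′ end exceeded the one at the 5′ end by 0.596 in control replicate 2, and by -0.148 to 0.246 in the other 8 arrays.

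Promoters are shown first for the 3 members that passed the test between the knockouts (Ndufc1, Ndufc2 and Atp5g1), for Ndufb2, which holds a CRE, the site of the factor CREB for which CBP is named, and for Sdhd, which holds 3 of the motifs searched. Each is 300 bases, with 250 before and 50 after the RefSeq start site (GRCm38.p6), read 5′ to 3′ on the gene's strand, and capitals mark a motif on either strand. Ndufc1 lies on the minus strand at chr3:51408906-51409205, Ndufc2 on the plus strand at chr7:97399753-97400052, Atp5g1 on the minus strand at chr11:96075582-96075881, Ndufb2 on the plus strand at chr6:39592315-39592614 and Sdhd on the minus strand at chr9:50603800-50604099. In Ndufc1 the capitals mark YY1, in Ndufb2 the CRE, and in Sdhd, in order, NRF1, an ETS site and ERR. Ndufc2 and Atp5g1 hold none of the 5 motifs in this window.
Ndufc1: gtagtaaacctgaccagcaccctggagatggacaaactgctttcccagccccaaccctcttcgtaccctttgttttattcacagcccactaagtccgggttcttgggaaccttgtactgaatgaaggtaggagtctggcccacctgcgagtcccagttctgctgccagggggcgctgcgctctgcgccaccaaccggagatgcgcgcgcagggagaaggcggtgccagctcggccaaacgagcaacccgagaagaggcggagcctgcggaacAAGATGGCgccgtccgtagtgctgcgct
Ndufc2: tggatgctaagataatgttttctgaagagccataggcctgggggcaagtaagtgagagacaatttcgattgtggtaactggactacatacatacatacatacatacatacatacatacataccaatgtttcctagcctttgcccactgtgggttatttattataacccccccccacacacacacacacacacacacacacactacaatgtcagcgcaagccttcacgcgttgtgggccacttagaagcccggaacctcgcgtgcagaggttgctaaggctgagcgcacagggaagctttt
Atp5g1: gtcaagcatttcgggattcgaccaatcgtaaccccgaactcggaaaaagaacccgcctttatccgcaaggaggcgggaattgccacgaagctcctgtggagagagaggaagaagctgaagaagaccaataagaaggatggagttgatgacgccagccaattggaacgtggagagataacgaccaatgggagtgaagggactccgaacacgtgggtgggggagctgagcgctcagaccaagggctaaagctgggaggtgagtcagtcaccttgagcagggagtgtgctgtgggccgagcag
Ndufb2: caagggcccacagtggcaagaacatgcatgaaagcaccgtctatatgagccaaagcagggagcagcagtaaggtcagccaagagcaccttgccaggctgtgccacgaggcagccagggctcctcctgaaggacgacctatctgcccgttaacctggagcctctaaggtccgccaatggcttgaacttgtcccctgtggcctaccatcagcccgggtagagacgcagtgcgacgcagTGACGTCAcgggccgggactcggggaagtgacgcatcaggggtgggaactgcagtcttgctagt
Sdhd: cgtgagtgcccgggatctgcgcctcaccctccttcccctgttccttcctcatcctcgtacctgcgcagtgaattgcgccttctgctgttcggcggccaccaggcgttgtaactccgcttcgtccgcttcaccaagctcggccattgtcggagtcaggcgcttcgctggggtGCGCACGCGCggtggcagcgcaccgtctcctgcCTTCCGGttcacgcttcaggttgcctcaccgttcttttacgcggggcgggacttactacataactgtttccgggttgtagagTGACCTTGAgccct

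Promoter sequences matched 70 of the 84 members, and 41 of these held at least 1 of 5 motifs of factors known to act at mitochondrial genes, searched on both strands. The NRF1 motif was in 16 members (22.9%, against 5.19% of 27025 genes with a promoter in the same table), and the ETS motif CCGGAAG, read by GABP, in 18 (25.7%, against 9.93%). The YY1 motif AAGATGGC was in 9 (12.9%, against 3.19%), the CRE TGACGTCA in 3 (4.29%, against 2.03%) and the ERR motif TCAAGGTCA in 2 (2.86%, against 0.466%). The 3 CRE holders were Ndufa10, Ndufb2 and Uqcrfs1. Between CBP-deleted and p300-deleted arrays the median log2 difference was 0.21 for members with NRF1, 0.19 with ETS, 0.22 with YY1 and 0.29 with a CRE, and 0.19 for the 29 members with none of the 5. In CBP-deleted against control arrays the medians were 0.05 with NRF1, 0.10 with ETS, 0.17 with YY1 and 0.09 with a CRE. They were 0.17 with none of the 5. In p300-deleted against control arrays the medians were -0.09, -0.06, -0.05 and -0.29 in the same order, and -0.03 with none. With ERR the median was 0.28 between the knockouts, 0.18 in CBP-deleted against control arrays and -0.10 in p300-deleted against control arrays. The CRE medians rest on 3 members and the ERR medians on 2. These differences between motif groups were not tested.

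Between the 2 knockouts, transcripts of oxidative phosphorylation were higher in CBP-deleted than in p300-deleted arrays across all 5 complexes, by small amounts. The log2 difference was positive for 76 of the 84 members, with a median of 0.20, equal to a ratio of 1.15, whereas 45.9% of all genes were positive and their median was -0.02. In 52 members (61.9%) all 3 CBP-deleted arrays lay above all 3 p300-deleted arrays, and the same held for 15.8% of all genes. The reverse order was found for Ndufa6 and Cox6a2, 2 of 84 members, and for 14.4% of all genes. Among the 71 subunits the order CBP above p300 held in 50 (70.4%). Other genes whose mean level lay within the range of the subunits, 6421 in number, showed it in 23.5% of cases and had a median of 0.01. That range ran from the lowest to the highest subunit mean and took in Ndufb1, at 5.91. The median subunit read 10.26 to 10.72 over the arrays, so these other genes were not matched to the subunits in level.

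Few single members passed the test across all genes. In CBP-deleted against p300-deleted arrays 3 of 84 members were called higher, a share near that of all genes (3.20%). These were Ndufc1, Ndufc2 and Atp5g1. Called lower were 0 (2.01% of all genes were).  Unadjusted p-values were under 0.05 for 35 members, against 18.3% of all genes. When the 6 knockout arrays were fitted alone, 26 members were called higher and 0 lower, against 6.68% and 4.50% of all genes. Leaving out control replicate 2 gave 18 calls and leaving out control replicate 3 gave 8, against 5.26% and 4.71% of all genes called higher. Without CBP-deleted replicate 1, 2 or 3, or p300-deleted replicate 1, 0 members passed (3.00%, 1.71%, 2.40% and 2.71% of all genes still did), and without p300-deleted replicate 2 or 3 only 1 did (2.32% and 3.44% of all genes). The median over the members was between 0.16 and 0.21 in the 6 fits that left out a knockout array, and leaving out a control array cannot move it.

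**Figure D1:**
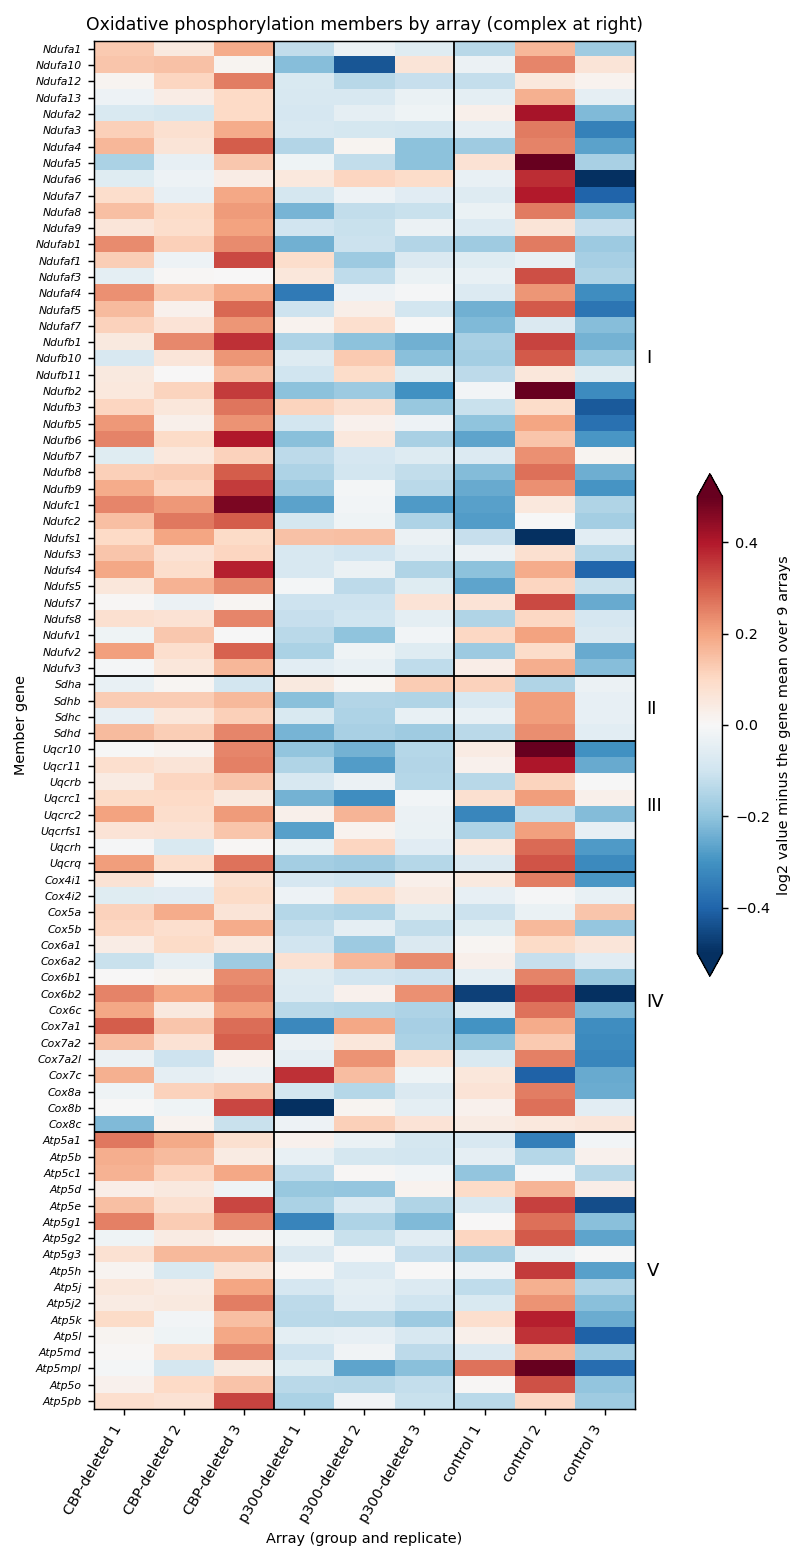
Heat map of the 84 members (rows, grouped by complex I to V) in each of the 9 arrays (columns: CBP-deleted, p300-deleted, control), coloured by the log2 value minus the gene's mean over the arrays. CBP-deleted arrays are mostly red and p300-deleted arrays mostly blue, while control replicate 2 is red and control replicate 3 blue in most rows.

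The level of the whole group in each array shows where the difference lies. The median over the 84 members was 10.35, 10.36 and 10.44 in CBP-deleted arrays and 10.17, 10.20 and 10.22 in p300-deleted arrays, against 10.20, 10.53 and 10.13 in control arrays. The knockouts did not overlap, and the controls spanned a wider range than both together: replicate 2 lay above every knockout array and replicate 3 below every one. Replicate 2 was the highest of the 3 controls in 75 members (89.3%, against 40.4% of all genes), and replicate 3 the lowest in 57 (67.9%, against 41.6%). The median standard deviation of a member over 3 arrays was 0.09 in the CBP-deleted group, 0.06 in the p300-deleted group and 0.23 in the control group. Over all genes the same figures were 0.10, 0.11 and 0.16.

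The high reading of control replicate 2 did not extend to every member. It was the lowest control for Atp5a1, Atp5b, Cox6a2, Cox7c, Ndufs1 and Sdha. For Ndufs1, the largest iron-sulfur subunit of complex I, it read 8.36, against 8.74 and 8.80 in the other controls. Control replicate 2 is also the array with the largest excess of the 3′ over the 5′ Gapdh probe set. For Actb it was not, at 0.444, against 0.282 to 0.472 in the other 8 arrays. The part of RNA quality in these readings was not tested.

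**Figure D2:**
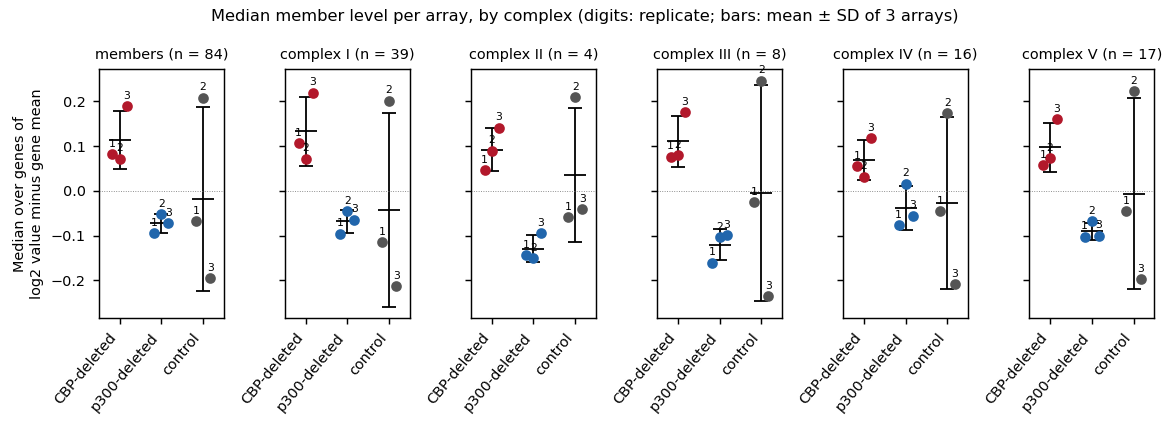
Median over genes of the log2 value minus the gene's mean (vertical axis), for all members and each complex; each point is 1 array with its replicate number, and bars give the mean ± SD of 3 arrays in CBP-deleted, p300-deleted and control groups. In every panel all 3 CBP-deleted points lie above all 3 p300-deleted points, and the control points spread more widely than either.

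Complex I, the NADH dehydrogenase and entry point of the chain, had a median log2 difference of 0.20 between CBP-deleted and p300-deleted arrays. All 3 CBP-deleted arrays lay above all p300-deleted arrays in 24 of its 39 members (61.5%, against 15.8% of all genes). Ndufc1, a small accessory subunit of the membrane arm, read 9.85, 9.83 and 10.08 in CBP-deleted arrays and 9.34, 9.60 and 9.33 in p300-deleted arrays, against 9.34, 9.67 and 9.46 in control arrays. The CBP-deleted arrays were the highest 3 of the 9, and the other groups overlapped. The difference was 0.50 ± 0.11 (SE, limma adjusted p = 0.0237) against p300-deleted and 0.43 ± 0.11 (adjusted p = 0.0485) against control arrays. Ndufc2, also an accessory subunit of the membrane arm, read 11.28, 11.39 and 11.43 in CBP-deleted arrays and 11.04, 11.11 and 10.98 in p300-deleted arrays, against 10.85, 11.13 and 10.96 in control arrays. Again the CBP-deleted arrays stood above all 6 others, by 0.33 ± 0.08 (SE, limma adjusted p = 0.0439) against p300-deleted and 0.39 ± 0.08 (adjusted p = 0.0251) against control arrays.

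The second probe set of each of these genes gave a like difference between the knockouts. For Ndufc1 it was 0.48 and for Ndufc2 0.34, and against the control arrays they gave 0.31 and 0.29. With Ndufc2's second probe set in place of the first, its difference against control did not pass (limma adjusted p = 0.224). Ndufc1's call against control was lost in 8 of the 9 fits that left out 1 array, all but the one without control replicate 2 (limma adjusted p from 0.0211 to 0.205).

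The 6 core subunits of complex I, which carry out electron transfer, all had positive differences between the knockouts, with a median of 0.17, and their difference from the accessory subunits was not tested. In Ndufs3, Ndufs8 and Ndufv2 all CBP-deleted arrays lay above all p300-deleted arrays, with differences of 0.18, 0.22 and 0.27 that did not pass (limma adjusted p = 0.22, 0.185 and 0.144). Ndufv1, the flavin subunit that accepts electrons from NADH, read 9.37, 9.53 and 9.39 in CBP-deleted arrays and 9.26, 9.19 and 9.38 in p300-deleted arrays, against 9.50, 9.59 and 9.32 in control arrays. The groups overlapped, and the interval of the difference between the knockouts ran from -0.05 to 0.36 (95%). Ndufs1 read 8.95, 9.05 and 8.95 in CBP-deleted arrays and 9.0005, 9.0049 and 8.83 in p300-deleted arrays, against the control values of 8.74, 8.36 and 8.80. Both knockouts lay above all 3 controls for Ndufs1, by 0.35 ± 0.12 and 0.31 ± 0.12 (SE), and neither difference passed (limma adjusted p = 0.107 and 0.166). These comparisons share the control arrays.

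Among the other families of complex I, the 10 Ndufb subunits had the larger median difference between the knockouts, 0.25, and the 12 Ndufa subunits 0.19. Ndufb2 read 8.99, 9.05 and 9.29 in CBP-deleted arrays and 8.73, 8.75 and 8.63 in p300-deleted arrays, against 8.92, 9.43 and 8.62 in control arrays. Its knockouts did not overlap, and the control replicates covered more than the whole range of both. Ndufa10 read 10.33, 10.34 and 10.21 in CBP-deleted arrays and 9.98, 9.76 and 10.26 in p300-deleted arrays, against 10.16, 10.44 and 10.26 in control arrays. Ndufa5 read 8.46, 8.58 and 8.75 in CBP-deleted arrays and 8.59, 8.49 and 8.41 in p300-deleted arrays, against 8.69, 9.12 and 8.46 in control arrays. For both of these genes the 3 groups overlapped. The 5 assembly factors, which build complex I and are not part of it, all had positive differences between the knockouts, with a median of 0.20, and none of them passed the test.

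Complex II, succinate dehydrogenase, is the only complex whose subunits are all encoded in the nucleus, and all 4 were measured. Sdhb, the iron-sulfur subunit, read 10.77, 10.77 and 10.80 in CBP-deleted arrays and 10.43, 10.49 and 10.49 in p300-deleted arrays, against 10.56, 10.85 and 10.60 in control arrays. Sdhd, a membrane anchor, read 9.62, 9.58 and 9.71 in CBP-deleted arrays and 9.23, 9.30 and 9.29 in p300-deleted arrays, against 9.33, 9.69 and 9.41 in control arrays. For both genes the p300-deleted arrays were the lowest 3 of the 9. Between the knockouts Sdhb differed by 0.31 ± 0.08 (SE) and Sdhd by 0.37 ± 0.10, just short of the threshold (limma adjusted p = 0.0538 and 0.0522), and both were called when control replicate 2 or 3 was left out or the knockouts were fitted alone. Neither was called in any fit without 1 of the knockout arrays, with array medians subtracted, without a variance trend or with the replicate number as a block, and Sdhb was not called without control replicate 1. Sdhc, the other anchor, had a difference of 0.13 with an interval from -0.07 to 0.34.

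Sdha, the flavin subunit that oxidises succinate, had a negative difference. Sdha read 9.76, 9.81 and 9.71 in CBP-deleted arrays and 9.85, 9.81 and 9.93 in p300-deleted arrays, against 9.92, 9.65 and 9.77 in control arrays. The CBP-deleted and p300-deleted arrays met at 9.81, both overlapped the controls, and its difference between the knockouts was -0.10, with an interval from -0.29 to 0.08.

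Complex III, the cytochrome c reductase, had a median difference of 0.23 between the knockouts, and in 6 of its 8 members all CBP-deleted arrays lay above all p300-deleted arrays. Uqcrfs1, the Rieske iron-sulfur protein, read 10.26, 10.26 and 10.33 in CBP-deleted arrays and 9.91, 10.20 and 10.15 in p300-deleted arrays, against 10.03, 10.39 and 10.15 in control arrays. Uqcrc1, one of the large core proteins, read 10.86, 10.86 and 10.81 in CBP-deleted arrays and 10.52, 10.45 and 10.74 in p300-deleted arrays, against 10.84, 10.97 and 10.79 in control arrays. For Uqcrc1 the p300-deleted arrays were the lowest 3 of the 9, by -0.29 ± 0.09 (SE) against control, which did not pass (limma adjusted p = 0.0876).

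Its partner Uqcrc2, the other core protein, showed a different order. Uqcrc2 read 10.50, 10.39 and 10.51 in CBP-deleted arrays and 10.32, 10.47 and 10.27 in p300-deleted arrays, against 9.97, 10.18 and 10.08 in control arrays. The knockouts overlapped, and both lay above all controls. Uqcrc2 was called higher in CBP-deleted than in control arrays, by 0.39 ± 0.08 (SE, limma adjusted p = 0.0257), and its difference of 0.28 ± 0.08 in p300-deleted arrays was not called (adjusted p = 0.0946). A second probe set of Uqcrc2 gave 0.15 in CBP-deleted arrays and -0.05 in p300-deleted arrays against the same controls, so that the 2 probe sets of this gene disagree. Of the small subunits, Uqcr10 read 9.99, 10.01 and 10.24 in CBP-deleted arrays and 9.80, 9.76 and 9.85 in p300-deleted arrays, against 10.04, 10.57 and 9.69 in control arrays. Uqcrh, the hinge protein, read 11.39, 11.32 and 11.40 in CBP-deleted arrays and 11.36, 11.50 and 11.34 in p300-deleted arrays, against 11.45, 11.68 and 11.11 in control arrays. Uqcrh was the 1 member of complex III with a negative difference between the knockouts, -0.03.

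Complex IV, cytochrome c oxidase, had a median difference of 0.18 between the knockouts. Of its 9 subunits of general use, 7 had all CBP-deleted arrays above all p300-deleted arrays (77.8%, against 15.8% of all genes). The exceptions were Cox4i1 and Cox7c. Cox5a read 11.79, 11.86 and 11.74 in CBP-deleted arrays and 11.53, 11.52 and 11.61 in p300-deleted arrays, against 11.56, 11.64 and 11.81 in control arrays. Cox4i1, the ubiquitous isoform of subunit 4, read 12.03, 11.95 and 12.03 in CBP-deleted arrays and 11.87, 11.86 and 11.98 in p300-deleted arrays, against 12.01, 12.21 and 11.67 in control arrays. Cox7c read 7.92, 7.70 and 7.72 in CBP-deleted arrays and 8.11, 7.90 and 7.72 in p300-deleted arrays, against 7.80, 7.34 and 7.49 in control arrays. Cox5a separated the knockouts by 0.24 ± 0.08 (SE, limma adjusted p = 0.101). The knockouts overlapped for Cox4i1, with a difference of 0.10 and an interval from -0.14 to 0.35, and Cox7c had a difference of -0.13.

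The 6 isoforms of complex IV known from other tissues followed no common direction. Their readings lay between 2.67 and 6.08, and Cox4i2, Cox7a1 and Cox8b had means below that 40th percentile. Between the knockouts 3 of the 6 were positive, with a median of 0.07. In none of them did all CBP-deleted arrays lie above all p300-deleted arrays, against 15.8% of all genes. Cox6b2, the testis isoform, read 5.20, 5.14 and 5.21 in CBP-deleted arrays and 4.88, 4.97 and 5.18 in p300-deleted arrays, against 4.48, 5.29 and 4.20 in control arrays. Cox8c, also of testis, read 5.74, 5.98 and 5.85 in CBP-deleted arrays and 5.93, 6.08 and 6.03 in p300-deleted arrays, against 6.00, 6.01 and 6.02 in control arrays. Cox8b, of heart and muscle, read 3.76, 3.74 and 4.10 in CBP-deleted arrays and 3.25, 3.78 and 3.72 in p300-deleted arrays, against 3.79, 4.04 and 3.71 in control arrays. The spread of Cox6b2 among the controls exceeded its difference from either knockout.

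Complex V, the ATP synthase, had positive differences between the knockouts in all 17 members, with a median of 0.20. In 13 of them all CBP-deleted arrays lay above all p300-deleted arrays (76.5%, against 15.8% of all genes). The catalytic F1 head and the membrane part Fo gave nearly the same median, 0.20 in each. Atp5g1, one of the 3 genes for the ring subunit c, read 9.68, 9.55 and 9.68 in CBP-deleted arrays and 9.10, 9.27 and 9.21 in p300-deleted arrays, against 9.43, 9.70 and 9.22 in control arrays. The control arrays ran from the range of one knockout to that of the other. Atp5g1 was called higher in CBP-deleted than in p300-deleted arrays, by 0.44 ± 0.11 (SE, limma adjusted p = 0.0435), and was not called in either knockout against control. The other genes for the same ring protein differed less, Atp5g3 by 0.20 and Atp5g2 by 0.07.

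In the F1 head, Atp5b, the catalytic beta subunit, read 11.45, 11.43 and 11.31 in CBP-deleted arrays and 11.23, 11.18 and 11.18 in p300-deleted arrays, against 11.22, 11.12 and 11.29 in control arrays. Atp5a1, the alpha subunit, read 11.28, 11.20 and 11.10 in CBP-deleted arrays and 11.04, 10.98 and 10.93 in p300-deleted arrays, against 10.94, 10.67 and 11.004 in control arrays. In both genes the CBP-deleted arrays were the highest 3 of the 9. Atp5a1 had the largest difference between CBP-deleted and control arrays in complex V, 0.32 ± 0.09 (SE), which did not pass (limma adjusted p = 0.071). Atp5mpl, a small membrane subunit, read 10.68, 10.60 and 10.74 in CBP-deleted arrays and 10.63, 10.42 and 10.48 in p300-deleted arrays, against 10.96, 11.37 and 10.30 in control arrays. The controls of Atp5mpl differed from each other by more than 1 log2 unit, more than its knockouts differed from them.

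**Figure D3:**
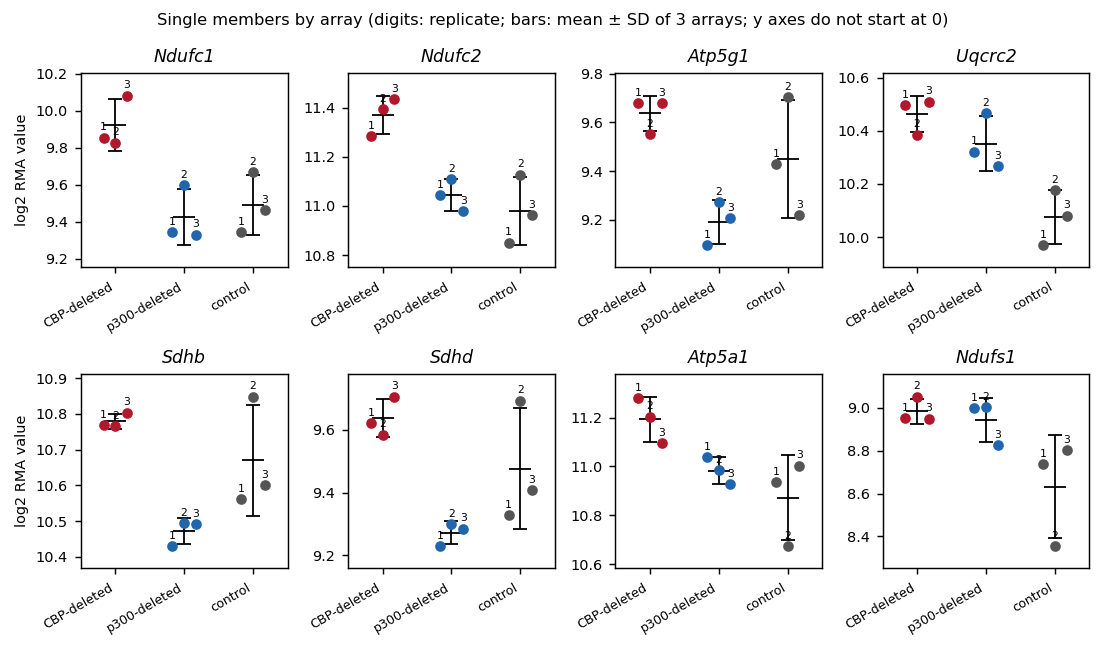
Log2 RMA level (vertical axis) of 8 members in the 3 CBP-deleted, 3 p300-deleted and 3 control arrays; digits are replicate numbers and bars the mean ± SD. Ndufc1, Ndufc2, Atp5g1, Sdhb and Sdhd show CBP-deleted arrays above p300-deleted arrays, Uqcrc2 shows both knockouts above the controls, and control replicate 2 is the lowest control for Atp5a1 and Ndufs1.

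In CBP-deleted against control arrays the members leaned upward with few calls. The log2 difference was positive for 68 of 84, with a median of 0.14, against 43.4% positive and a median of -0.03 over all genes. The test called 4.93% of all genes in either direction. Called higher were 3 members, Ndufc1, Ndufc2 and Uqcrc2 (2.14% of all genes were called higher), and called lower were 0 (2.79% of all genes), with 20 members under 0.05 before adjustment (20.4% of all genes). All CBP-deleted arrays lay above all controls in 10 members, and in 10% of all genes, and below them in 1, Cox8c, and in 14.5% of all genes. The share of members whose arrays separated upward, 11.9%, is therefore near that of all genes. Complex I had the highest median, 0.17, followed by complex V with 0.14, and complexes II, III and IV had 0.06, 0.08 and 0.07.

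This comparison depends on which controls are used. Without control replicate 2, 80 of 84 members were positive with a median of 0.23, and 23 were called higher, against 4.20% of all genes. Without control replicate 3 the median was 0.07, with 4 members called higher (Atp5a1, Ndufc2, Ndufs1 and Uqcrc2) and 1 lower (Atp5mpl, by -0.50), against 3.96% and 5.16% of all genes. Leaving out control replicate 1 or any 1 CBP-deleted array gave 0 calls, while 1.05% of all genes still passed without that control and 0.992%, 0.734% and 0.686% without CBP-deleted replicate 1, 2 and 3.

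In p300-deleted against control arrays the lean was slight and downward. Of all genes 4.06% were called. The difference was positive for 26 of 84 members, with a median of -0.06, against 44.9% positive and a median of -0.02 over all genes. No member was called (0 of 84, against 2.02% of all genes higher and 2.04% lower by limma), 9 had an unadjusted p under 0.05 (18.6% of all genes did). Cox6b2 was called higher without control replicate 2 (2.06% of all genes were) and Uqcrc1 lower without p300-deleted replicate 3 (1.21% of all genes were). All p300-deleted arrays lay below all controls in 5 members, Sdhb, Sdhd, Uqcrc1, Cox6a1 and Atp5d, and in 11.5% of all genes. They lay above all controls in 4, Ndufaf7, Ndufs1, Uqcrc2 and Cox6a2, and in 8.76% of all genes. The median turned to 0.04 without control replicate 2 and was -0.14 without control replicate 3, when Atp5g1, Atp5k and Atp5mpl were called lower (3.88% of all genes were). The direction against control in p300-deleted arrays thus rests on 1 control array. Both comparisons against control use the same 3 control arrays.

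**Figure D4:**
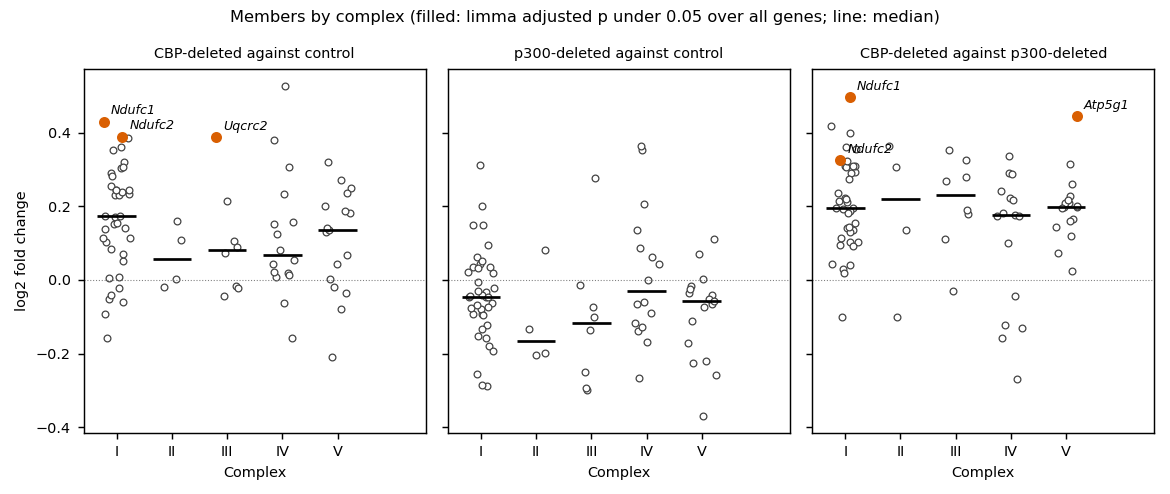
Log2 fold change (vertical axis) of each member by complex (horizontal axis) in 3 panels: CBP-deleted and then p300-deleted arrays against control, and the knockouts against each other; filled points passed the test over all genes, and lines are medians. Most points are above 0 when CBP-deleted arrays are set against either other group, and the 3 called members of each are labelled.

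Other genes of mitochondrial respiration were described from lists of electron carriers, the TCA cycle, assembly factors and regulators. For these and the marker lists below, the shares of all genes called serve as background. In CBP-deleted against p300-deleted arrays 3.20% were called higher and 2.01% lower. Against control the shares were 2.14% and 2.79% for CBP-deleted arrays, and 2.02% and 2.04% for p300-deleted arrays. Of 14 measured carriers and inner membrane partners, 2 rose and 1 fell in CBP-deleted against p300-deleted arrays, with a median difference of 0.25. Cycs, cytochrome c, read 10.69, 10.80 and 10.98 in CBP-deleted arrays and 10.29, 10.59 and 10.22 in p300-deleted arrays, and Slc25a5, an ADP/ATP carrier, rose by 0.37 ± 0.07 (SE). Chchd10, a protein of the intermembrane space, fell by 0.49 ± 0.12. Against control, CBP-deleted arrays had Etfa, which passes electrons from fatty acid oxidation to ubiquinone, and Slc25a4, another ADP/ATP carrier, higher by 0.43 and 0.58, and Chchd10 lower, at -0.81. No gene of the list was called in p300-deleted against control arrays by limma (4 had an unadjusted p under 0.05).

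The TCA cycle, which supplies NADH and succinate to complexes I and II, had 2 of 17 genes higher in CBP-deleted than in p300-deleted arrays and 0 lower, with a median of 0.17. These were Idh3a, a subunit of the NAD-dependent isocitrate dehydrogenase (9.45, 9.46 and 9.50 in CBP-deleted arrays, 8.97, 8.92 and 9.01 in p300-deleted arrays and 8.94, 8.77 and 9.22 in control arrays), and Fh1, fumarase, by 0.36. In 11 of the 17 genes all CBP-deleted arrays lay above all p300-deleted arrays, as in 15.8% of all genes. Idh3a and Suclg2, a subunit of succinyl-CoA synthetase, were higher in CBP-deleted than in control arrays by 0.50 and 0.70, and 0 genes were called in p300-deleted against control arrays (3 at an unadjusted p under 0.05).

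Of 33 assembly factors measured, which include the 5 already named, Lrpprc, which stabilises mitochondrial mRNA, was higher in CBP-deleted than in p300-deleted arrays (by 0.40) and Sdhaf1, which helps to build complex II, was lower (by -0.46). Sdhaf1 was also higher in p300-deleted than in control arrays (by 0.51), and Cox19, a copper handling factor of complex IV, was higher in CBP-deleted than in control arrays (by 0.43). Among 15 regulators of mitochondrial gene expression none was called in any comparison by limma, and 2, 2 and 1 had an unadjusted p under 0.05. The largest differences from control were those of Gabpa, a subunit of the ETS factor GABP, 0.53 for the CBP deletion and 0.49 for the p300 deletion, and of Myc, -0.29 and -0.44. Tfam, which packages mitochondrial DNA, read 8.80, 8.74 and 8.92 in CBP-deleted arrays and 8.78, 8.92 and 8.79 in p300-deleted arrays, against 8.701, 8.85 and 8.69 in control arrays, and the groups overlapped.

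Markers of dividing cells and of other cell types also differed between the groups. In RNA of mixed cells, fewer cells of a type and less RNA per cell cannot be told apart. Of 11 markers of proliferating cells, 9 were higher in CBP-deleted than in p300-deleted arrays, with a median difference of 1.14, and 5 were lower in p300-deleted than in control arrays. Their median level was 8.87, 9.21 and 9.13 in CBP-deleted arrays and 8.34, 8.03 and 8.06 in p300-deleted arrays, against 8.76, 8.65 and 9.43 in control arrays. Among the controls the order was the reverse of that of the members: replicate 3 had the highest proliferation median and the lowest member median, and replicate 2 the lowest and the highest.

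Plasma cell markers ran against the members between the knockouts, with 4 of 5 lower in CBP-deleted than in p300-deleted arrays. Their summed level was 12.2 to 12.6 in CBP-deleted arrays and 13.2 to 13.5 in p300-deleted arrays, against 12.2 to 12.6 in control arrays. Of 5 mast cell and basophil markers, 1 (Cpa3) was lower in CBP-deleted than in p300-deleted arrays, and the summed level was 7.55 to 8.58 in CBP-deleted arrays and 8.55 to 9.43 in p300-deleted arrays, against 7.61 to 7.68 in control arrays. For neutrophil and monocyte markers, of which 0 of 11 were called between the knockouts (2 at an unadjusted p under 0.05 by limma), the summed level was 9.40 to 12.2 in CBP-deleted arrays and 9.66 to 11.7 in p300-deleted arrays, against 8.09 to 9.39 in control arrays. B cell markers gave 3 of 6 lower in CBP-deleted than in control arrays, with summed levels of 8.90 to 9.46 in CBP-deleted arrays and 9.22 to 9.96 in p300-deleted arrays, against 9.79 to 9.99 in control arrays. For CD8 T and NK cells 2 of 7 markers were higher in CBP-deleted than in control arrays, with summed levels of 10.01 to 10.59 in CBP-deleted arrays and 10.6 to 10.8 in p300-deleted arrays, against 10.2 in each control array. Of 9 T cell and Treg markers 0 were called between the knockouts by limma (4 at an unadjusted p under 0.05), and of 2 erythroid markers 1, Alas2, was lower in CBP-deleted than in control arrays. In p300-deleted against control arrays 4 of 5 plasma cell markers and 3 of 5 mast cell and basophil markers were called higher. So were 1 of 11 neutrophil and monocyte markers and 1 of 7 CD8 T and NK markers (2.02% of all genes were). Of the T cell and Treg markers 2 were called higher and 1 lower there, and of the B cell markers 0 were called. The part of any of these cell types in the differences of the members was not tested.

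**Figure D5:**
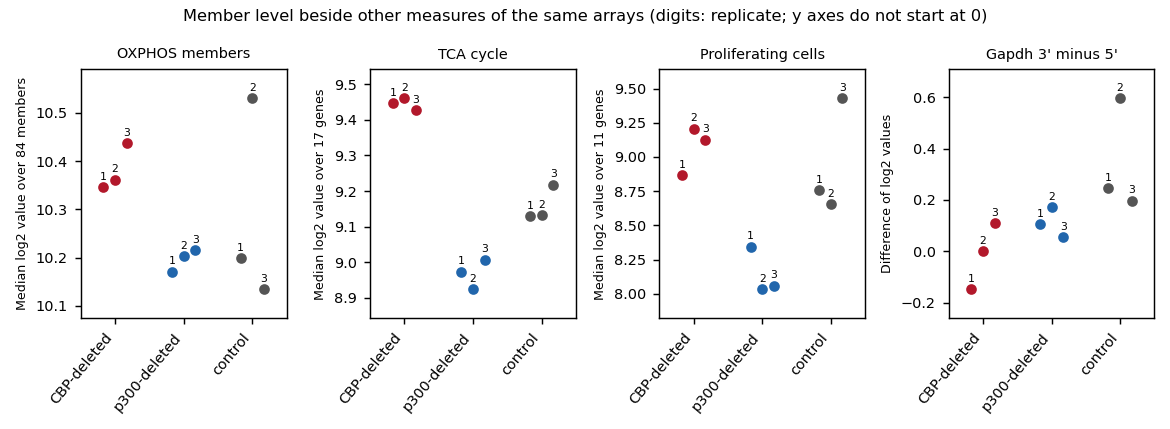
Each panel gives 1 value per array (points, with replicate number) in CBP-deleted, p300-deleted and control arrays: the median log2 level of the 84 members, of 17 TCA cycle genes and of 11 proliferation markers, and the log2 difference between the 3′ and 5′ Gapdh probe sets. CBP-deleted arrays are above p300-deleted arrays in the first 3 panels, and control replicate 2 is the highest array in the first and the last. The TCA cycle median is the reading of the middle gene, and in p300-deleted arrays it equals the rounded reading of Idh3a. The gap in that panel is wider than the median of the differences per gene, 0.17.

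Probe sets that did not stand for a gene gave the same picture between the knockouts. Of 72 further probe sets with 1 symbol, 57 had a mean level of at least 6, and 56 of these had the same sign of difference as the probe set used for their gene in CBP-deleted against p300-deleted arrays, against 45 of 57 in each comparison with control. A further 8 probe sets match the symbols but carry several gene names and were left out, and all 8 were higher in CBP-deleted than in p300-deleted arrays, with a median of 0.22.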

How the data were processed

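Transcripts were measured on 9 single-channel Affymetrix arrays, 3 per group, from 100 ng of total RNA per the labels. The deposited values are log2 RMA levels, 1 per probe set and array, per the submitters' processing notes, which give no version. They were used as deposited. Of 22690 probe sets, 64 controls were set aside, 20380 had 1 symbol in the platform annotation, 691 several and 1555 none used here, which left 12393 genes. Arrays have no read depth, and their number limits the precision.

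The tests used limma (version 3.58.1, R version 4.3.3). All 9 arrays entered 1 linear model with a mean for each group, which leaves 6 residual degrees of freedom, followed by trended empirical Bayes moderation; two-sided p-values were adjusted by Benjamini-Hochberg over all genes at 0.05. The script was tested on simulated data. The members, lists, motifs and alternatives were chosen with earlier results of these data known. Values in every array are given for members that passed a test and for the highest and lowest of each complex against control. They are also given for members picked by name: Ndufs1, Ndufv1, Sdha, Sdhb, Uqcrc1, Uqcrc2, Uqcrfs1, Cox4i1, Cox5a, Atp5a1 and Atp5b. Ndufb2, Sdhc, Ctla4 and Tfam were named after their values were seen. In the lists of respiration genes, those that passed are named, or else the 2 with the largest change. For the marker lists, counts and levels are given and few genes are named. Promoter sequences are those of RefSeq (GRCm38.p6), and 14 members have no entry used here. Samples are numbered as in their titles.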

Additional observations from a re-analysis of the deposited data

Results flagged for a closer look

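Probe sets that did not stand for their gene did not enter the counts of called members. Tested singly beside all others, an alternative chosen after seeing the data, 2 of them passed between the knockouts. The second probe set of Ndufc1, already described, was higher in CBP-deleted than in p300-deleted arrays by 0.48 (limma adjusted p = 0.0209), and a second probe set of Ndufs8, an iron-sulfur subunit of complex I, by 0.40 (adjusted p = 0.0431).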

How the results depend on the processing

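The median difference of the members changed direction in none of the alternatives for CBP-deleted against p300-deleted or control arrays. Against control, the CBP-deleted count of called members was 1 with probe sets averaged per gene (4.14% of all genes were called). This was Ndufab1 (0.63, limma adjusted p = 0.0144), and Ndufc1, Ndufc2 and Uqcrc2 were lost. With the probe set used, Ndufab1 gave 0.23 (adjusted p = 0.276). Without probe sets named _x_at or _s_at the called members were Ndufab1 (1.36 ± 0.33 SE, adjusted p = 0.0383) and Uqcrc2 (4.75% of all genes). Only Uqcrc2 was called with array medians subtracted (4.26%) or without a variance trend (4.10%). The count was 0 with only CBP-deleted and control arrays fitted (2.11%) and 17 with array weights (14.2%). With p300-deleted against control arrays it was 2 with array weights (8.30%). For the knockouts against each other it was 5 of 81 without dim probe sets (9.30% of all genes), 1 with mean probe sets (4.42%), 1 with array medians subtracted (4.64%), 1 without a trend (4.68%), 26 with only those groups (11.2%) and 19 with weights (11.8%). Leaving out 1 array at a time gave 0 to 23, 0 to 3 and 0 to 18 members in these comparisons, and 85 to 1131, 65 to 854 and 212 to 1041 of all genes. All genes called were 261, 165 and 1386 with only those groups fitted, and 1755, 1028 and 1467 with weights. With the replicate block, 1 member and 364 genes passed in CBP-deleted against control, 0 members and 326 genes in p300-deleted against control, while 1 member and 524 genes passed in CBP-deleted against p300-deleted. Deviations from the group means correlated with r from -0.234 to 0.270 over genes in same-numbered arrays of different groups. In differently numbered arrays r ran from -0.192 to 0.259. With 3 arrays per group these values cannot show whether same-numbered arrays were handled together. Some single differences changed sign. In CBP-deleted against control arrays, Sdha gave 0.0162 with mean probe sets and -0.0846 to 0.0489 leaving out 1 array, Atp5mpl -0.496 (called lower, without control replicate 3) to 0.0393, Ndufa5 -0.308 to 0.0228 and Uqcrh -0.193 to 0.0893. In p300-deleted against control arrays, Ndufc2 gave -0.0588 with its other probe set and -0.00147 to 0.137 leaving out 1 array, and Ndufc1 0.0340 with weights and -0.153 to 0.0211. Between the knockouts Ndufs1 gave -0.0173 to 0.0722. The cause was not tested, beyond the smaller number of arrays in some fits.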
